A study of Mus musculus with 6 samples.

Results

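Pre-mRNA splicing removes introns from nuclear transcripts and depends on a core machine, the spliceosome, and on RNA-binding proteins that decide which sites it uses. SR proteins bind exons through an RNA recognition motif and recruit the spliceosome through a domain rich in arginine and serine, whereas hnRNPs coat nascent RNA and often oppose exon inclusion. CLK kinases phosphorylate SR proteins in the nucleus and release them from nuclear speckles, and the SF3a and SF3b complexes are the parts of the U2 snRNP that hold the branch site. Many SR protein, hnRNP and Clk genes limit their own output through exons or introns whose retention sends the transcript to decay or keeps it in the nucleus.

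The genes described here are the rows of the gene count table whose symbols are Srsf with a number, Hnrnp with a suffix, Clk1 to Clk4, or Sf3a or Sf3b with a number from 1 to 6. This rule gave 41 of 23358 genes: 11 SR proteins, 18 hnRNPs, 4 Clk kinases, 3 SF3a and 5 SF3b subunits. All 41 passed the filter on low counts. The rule works on symbols, so Hnrpdl and Hnrpll, which the table holds under older names, are not members.

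The libraries are RNA-seq of total RNA from calvaria, the bony roof of the skull, of mice aged 2 to 3 days, after a collagenase and trypsin digestion that all samples received. In 3 libraries (cKO 8, cKO 10 and cKO 37, named by group and label number) the label gives a conditional knockout of Ezh2, the catalytic subunit of the repressive complex PRC2, and in 3 (WT 14, WT 27 and WT 29) wild type. Osx, the former symbol of the osteoblast lineage factor Sp7, stands in the labels of either group, but these do not name a Cre transgene, say whether wild-type animals carried it, or tie each library to an animal of its own. The p-values therefore reflect scatter among the 6 libraries, which may be technical in part. Calvaria holds many cell types, so a whole-tissue level cannot tell fewer cells of a type from less RNA per cell.

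Gene counts summed to between 60449016 and 95439578 per library, and the 41 genes took 0.592% to 0.638% of them. Ezh2 itself did not pass the threshold, at 20.7, 21.7 and 20.4 CPM (counts scaled to the size of the library) in WT 14, WT 27 and WT 29 against 19.2, 20.6 and 19.8 in cKO 8, cKO 10 and cKO 37 (log2 fold change -0.07 ± 0.07, adjusted p = 0.507). The deleted part of the gene is not given, so whole-gene counts do not check the labels, and cKO means the libraries so labelled. The osteoblast markers fixed for the tissue were present (Col1a1 from 44382 CPM upward, Runx2 from 235), while Krt14 of epidermis and Myod1 of muscle were at 0.18 CPM or less in each library. Other markers of those lists were detected, and the lists summed to 9.22 to 11.1 CPM for epidermis and 3.26 to 4.59 for skeletal muscle.

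Sequences are shown first for the kinases, because Clk1 and Clk4 were the members with the largest rises and are each other's closest relative. Over their coding sequences (GENCODE M21), Clk1 and Clk4 shared 74.6% of aligned bases and Clk2 and Clk3 71.2%, and the other 4 pairs 63.1% to 67.3%. The LAMMER signature, a conserved stretch of the kinase domain that names the family, is coded by the following 30 bases, 5′ to 3′, with capitals where a base differs from Clk1.
Clk1: gaacatttagcaatgatggaaaggattctt
Clk2: gaGcatCtagcCatgatggaaaggatCctG
Clk3: gaacaCttGgTTatgatggaGaAgattctA
Clk4: gaGcaCCtGgcaatgatggaGCggatCTtA
In this stretch Clk4 differed from Clk1 at 9 bases, Clk2 at 5 and Clk3 at 7, so the overall closeness of Clk1 and Clk4 is not seen in these bases. The differences of Clk2 and Clk4 leave the coded amino acids the same as in Clk1, whereas some of those in Clk3 change them. No other annotated gene matched the Clk1, Clk2 or Clk4 transcripts at 95% identity or more over at least 100 bases, which bears on whether reads could be divided between paralogs. In Clk3, 16.6% of the transcript matched its neighbour Edc3.

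Of the 41 genes, 2 rose and 12 fell in cKO, and 27 did not pass the edgeR quasi-likelihood test at a Benjamini-Hochberg adjusted p of 0.05 over all 16089 tested genes. Those 14 genes are 34.1% of the members, beside 12.4% of all tested genes (5.96% higher and 6.45% lower). The members were chosen with earlier results of these data known, so such shares and counts of signs are not independent evidence. Well-covered genes pass more often: among the 9351 genes with a mean CPM of at least 10, a level that 40 of the 41 exceed, 17% passed (6.87% higher and 10.1% lower). Fold changes were above 0 in 10 members and below 0 in 31, beside 51.3% of all tested genes above 0. The changes were small. Fold changes of the members (log2, cKO over WT, with standard errors throughout) ran from -0.37 to 0.52, and their median was -0.07 beside 0.01 for all tested genes. The 3 WT and 3 cKO libraries did not overlap in 24 members (58.5%), beside 34.6% of all tested genes and 41.7% of those with a mean CPM of at least 10.

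All 14 genes kept their direction under each of the 16 alternatives run, but the number that passed did not hold. The groups did not overlap in any of the 14, so leaving out a library could hardly have reversed a direction. Against 12 lower members with all libraries, 6 passed without WT 14, 5 without WT 27, 2 without WT 29, 1 without cKO 8 and 7 without cKO 10, and with upper-quartile scaling it was 7. The share of all genes that passed also fell in those fits, to 3.59% without cKO 8.

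**Figure D1:**
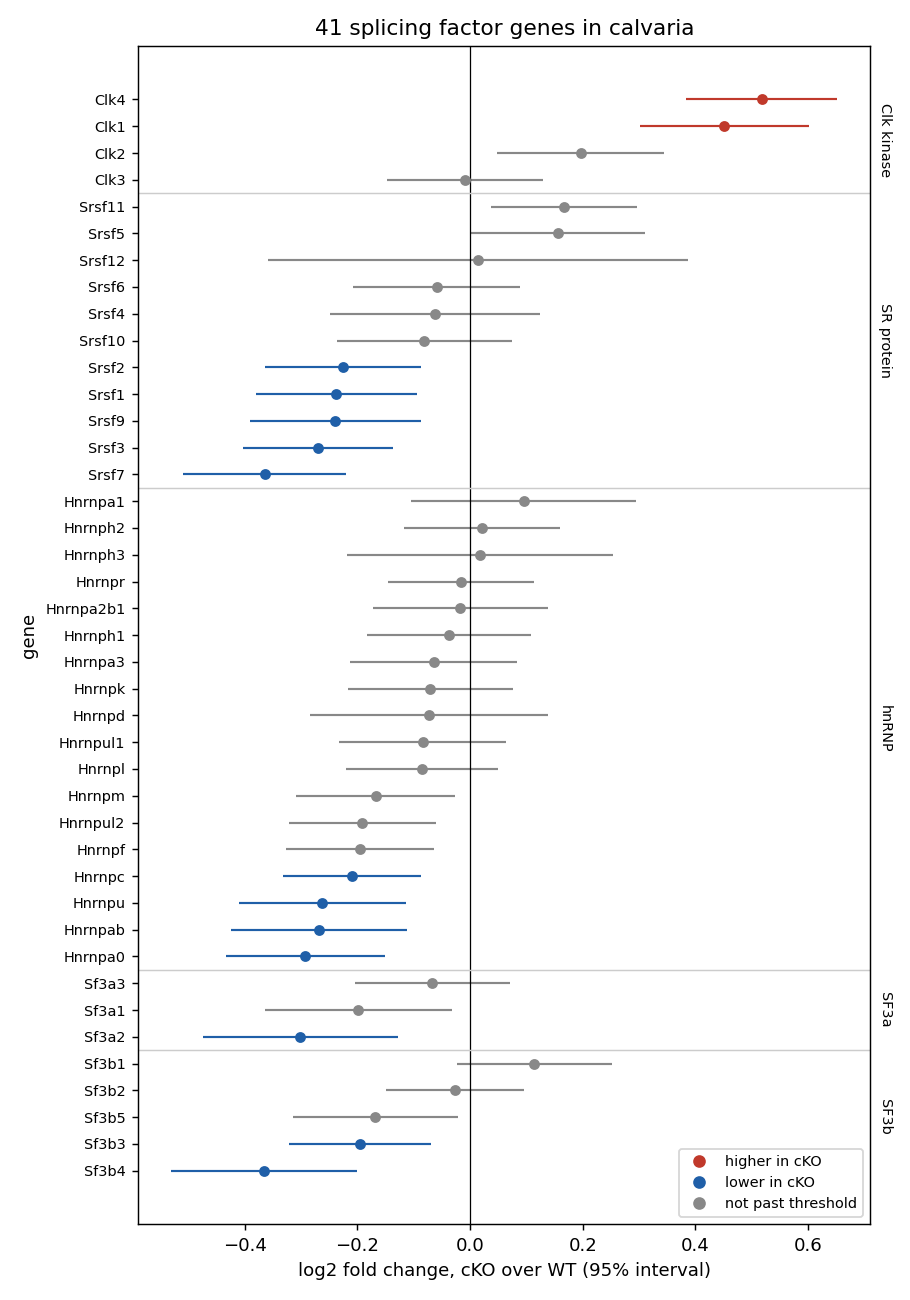
Log2 fold change of each of the 41 genes, cKO over WT (x axis), with its 95% confidence interval from the edgeR model (n = 3 libraries per group), grouped by family (y axis, gene). Clk1 and Clk4 lie to the right at 0.45 and 0.52, and the 12 genes that fell lie between -0.37 and -0.20.

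Among the kinases, Clk4 and Clk1 were higher in every cKO library than in any WT library, by 1.43-fold and 1.37-fold. Clk4 (mm10 chromosome 11, 51263171 to 51281764) was at 29, 32 and 31.4 CPM in WT 14, WT 27 and WT 29 and at 44.9, 43.7 and 43.8 in cKO 8, cKO 10 and cKO 37. The groups stood apart and the cKO libraries were nearly equal, and the log2 fold change was 0.52 ± 0.06 (95% confidence interval 0.38 to 0.65, adjusted p = 0.00154). Clk1 (chromosome 1, 58411988 to 58424088) was at 109, 96.7 and 107 CPM in WT and 152, 140 and 136 in cKO, a difference of 0.45 ± 0.07 (0.30 to 0.60, adjusted p = 0.00381). Clk1 is the most abundant of the 4 kinases per length, at 29.8 RPKM over the 6 libraries (reads scaled to gene length and library size, as deposited), beside 17.2 for Clk2, 17 for Clk3 and 14.8 for Clk4.

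Clk2 was at 47.9, 50.4 and 50.6 CPM in WT and 59.5, 59.1 and 52 in cKO. The groups did not overlap, with cKO 37 close to the WT libraries, and the difference of 0.20 ± 0.07 did not pass (adjusted p = 0.0789). It passed without cKO 37 and once GC content and length were entered as an offset (adjusted p = 0.0303). Clk3 was at 53.4, 57.8 and 59.7 CPM in WT and 56.5, 54.8 and 58.5 in cKO, with the groups interleaved (-0.01 ± 0.06, 95% confidence interval -0.15 to 0.13, adjusted p = 0.945). Whether the 4 kinases differ from each other in their response was not tested. Clk4 passed under all 16 alternatives. Clk1 missed only when tested against a 1.2-fold change (adjusted p = 0.115).

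**Figure D2:**
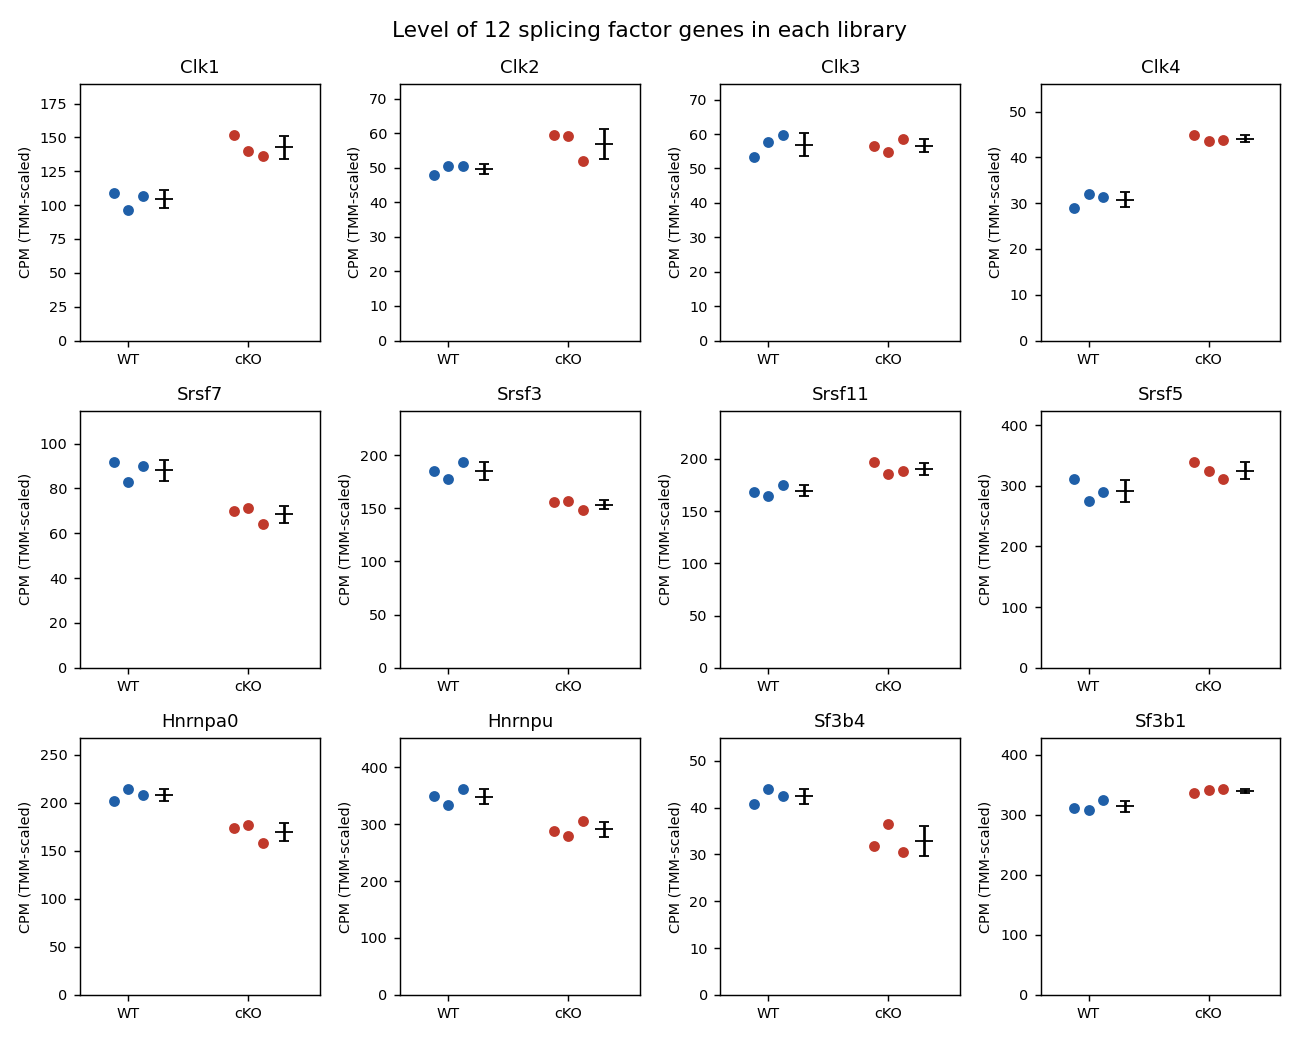
TMM-scaled CPM (y axis, from 0) of 12 genes for every library (blue points for WT and red for cKO), and beside them the mean and SD of each group (n = 3). Clk1 and Clk4 are higher in cKO without overlap and Clk3 overlaps, whereas Srsf7, Srsf3, Hnrnpa0, Hnrnpu and Sf3b4 are lower in cKO without overlap.

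Of the 11 SR proteins, 5 fell, none rose and 6 did not pass, with 8 fold changes below 0 and 3 above. The 5 are 45.5% of the family, beside 12.4% of all tested genes and 17% of those with a mean CPM of at least 10. Those that fell are Srsf1, Srsf2, Srsf3, Srsf7 and Srsf9. Srsf7 (chromosome 17, 80200080 to 80207305), a zinc knuckle SR protein that shuttles to the cytoplasm, was at 91.7, 82.8 and 89.8 CPM in WT 14, WT 27 and WT 29 and at 70.1, 71.2 and 64.1 in cKO 8, cKO 10 and cKO 37. Each cKO library was below each WT library, by -0.36 ± 0.07 on the log2 scale (95% confidence interval -0.51 to -0.22, adjusted p = 0.0076), or 22.3% less. Srsf3 (chromosome 17, 29032660 to 29043372), a short SR protein that also shuttles and links splicing with mRNA export and 3′ end choice, was at 185, 177 and 193 CPM against 156, 156 and 148. Again the groups did not overlap (-0.27 ± 0.06, adjusted p = 0.018). About 49.5% of the Srsf3 transcript matched 5 other annotated genes, so its reads could have been divided or dropped in the counting, while Srsf7 had no such match.

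Srsf1 (chromosome 11, 88047671 to 88053757), the founding SR protein, was at 144, 138 and 159 CPM in WT and 126, 123 and 126 in cKO (-0.24 ± 0.07, adjusted p = 0.0381). The WT libraries were the more scattered group here. Srsf2 (chromosome 11, 116849897 to 116853094), which stays in the nucleus, was at 152, 150 and 153 against 133, 136 and 120 (-0.23 ± 0.06, adjusted p = 0.0397), with 39.4% of its transcript shared with the overlapping genes Mfsd11 and Mettl23. In Srsf2 the scatter lay in cKO, where cKO 37 was lowest. Srsf9 (chromosome 5, 115327177 to 115333080), a close relative of Srsf1, was at 35.9, 41.9 and 41.2 against 33.6, 33.9 and 33.2 (-0.24 ± 0.07, adjusted p = 0.0451), with WT 14 near the cKO level. Srsf7 kept its call without any single library and missed only when tested against a 1.2-fold change (adjusted p = 0.4). The other calls were lost without WT 29 or cKO 8 and, except for Srsf3, without 2 to 3 further libraries (adjusted p = 0.051 to 0.151), and those of Srsf1, Srsf2 and Srsf9 with upper-quartile scaling (0.0567 to 0.0696). Srsf9 was also lost with limma voom (0.0601).

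The remaining SR proteins did not pass. Srsf5 is the most abundant of the family per length, at 139 RPKM, and second among all 41 genes. It was at 311, 275 and 289 CPM in WT and 339, 325 and 312 in cKO, with the highest WT library just below the lowest cKO library (0.16 ± 0.07, adjusted p = 0.167). Srsf11 was at 168, 165 and 175 against 197, 186 and 189 (0.17 ± 0.06, adjusted p = 0.0876), again with no overlap. Those values stand in the opposite direction to the 5 that fell. With GC content and length as an offset, Srsf5 was at 0.02 and Srsf11 at 0.08 (adjusted p = 0.86 and 0.304). Srsf4, Srsf6 and Srsf10, with overlapping groups, had values from -0.08 to -0.06, and Srsf12 was scarce at 2.15 to 2.86 CPM (0.01 ± 0.17, the smallest difference of the family).

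The upstream sequence of 3 members that moved is given for context, from RefSeq on GRCm38.p6, 5′ to 3′ on the gene's strand and ending just before the annotated start. Capitals mark TGACG (part of the cyclic AMP response element), CCAAT and TATAAA, searched on both strands.
Clk4, chr11:51262864-51263113, plus strand: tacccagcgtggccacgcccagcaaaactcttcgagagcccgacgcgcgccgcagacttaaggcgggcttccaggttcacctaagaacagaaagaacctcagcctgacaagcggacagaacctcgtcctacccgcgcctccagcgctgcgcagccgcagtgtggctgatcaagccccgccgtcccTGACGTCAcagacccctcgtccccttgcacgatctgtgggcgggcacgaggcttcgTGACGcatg
Srsf3, chr17:29032410-29032659, plus strand: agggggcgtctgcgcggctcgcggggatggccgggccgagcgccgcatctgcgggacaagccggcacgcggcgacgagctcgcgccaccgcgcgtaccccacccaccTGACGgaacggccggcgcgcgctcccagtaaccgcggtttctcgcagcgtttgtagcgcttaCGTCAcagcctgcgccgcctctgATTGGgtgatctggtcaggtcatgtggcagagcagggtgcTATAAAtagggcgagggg
Srsf7, chr17:80207306-80207555, minus strand: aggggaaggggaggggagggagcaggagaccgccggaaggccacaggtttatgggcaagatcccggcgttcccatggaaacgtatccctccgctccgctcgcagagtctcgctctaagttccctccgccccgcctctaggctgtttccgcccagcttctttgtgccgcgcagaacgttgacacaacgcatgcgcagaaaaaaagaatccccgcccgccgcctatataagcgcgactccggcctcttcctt
Clk4 holds the whole palindrome TGACGTCA, first base 65 bases before the start, and is the only one of the 37 members with a RefSeq entry that has it. Clk1, Hnrnpul2, Sf3b4 and Sf3b5 have no entry and were not searched. Srsf3 holds TATAAA 18 bases and ATTGG 58 bases before its start, and the Srsf7 stretch holds no exact match to the 3 motifs. Variants of the motifs were not searched. In the RefSeq windows, which run on 50 bases past the start, TGACG was found in 26 of 50 windows of the 37 members with an entry (52%), beside 28.3% of the windows of all tested genes and 20.8% of all windows. For CCAAT the shares were 50%, 37.2% and 37.4%, and for TGACGTCA 2%, 2.8% and 1.8%. TATAAA was in 5 windows of the members (10%, beside 7.9% and 13.6%), those of Srsf2, Srsf3, Hnrnpab, Hnrnpm and Sf3b3. TGACGTCA contains TGACG, so their counts overlap, and a match is only letters in the window.

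Of the 18 hnRNPs, 4 fell, none rose and 14 did not pass (22.2% past the threshold), and 15 had a negative fold change. Beside 12.4% of all tested genes and 17% of those with a mean CPM of at least 10, that share is the lowest of the families. The summed level of the family was lower in each cKO library (3433 to 3540 CPM) than in each WT library (3739 to 3874). Hnrnpa0 (chromosome 13, 58125879 to 58128556), a single-exon relative of hnRNP A1 that binds AU-rich mRNA, was at 202, 214 and 208 CPM in WT 14, WT 27 and WT 29 and at 173, 177 and 159 in cKO 8, cKO 10 and cKO 37. All cKO libraries were below all WT libraries (-0.29 ± 0.06, 95% confidence interval -0.43 to -0.15, adjusted p = 0.0163). Hnrnpab (chromosome 11, 51600100 to 51606881), also known as CBF-A, was at 259, 257 and 274 against 228, 229 and 199 (-0.27 ± 0.07, adjusted p = 0.0337), with cKO 37 the lowest. Some 30.6% of its transcript is shared with the neighbouring gene Phykpl.

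Hnrnpu (chromosome 1, 178328300 to 178337784), the scaffold attachment factor that ties RNA to chromatin, was at 350, 335 and 361 CPM in WT and 287, 280 and 305 in cKO (-0.26 ± 0.07, adjusted p = 0.0298). Hnrnpc (chromosome 14, 52073380 to 52104028), which binds uridine tracts and keeps cryptic exons out of mRNA, was at 149, 142 and 144 against 126, 127 and 123 (-0.21 ± 0.06, adjusted p = 0.0338). In both genes the groups were apart and the libraries within each close together. Of the Hnrnpc transcript 31.8% matched the annotated gene Gm12696, while Hnrnpu had no such match. Without WT 29 or without cKO 8 none of the 4 hnRNP calls remained, and each was also lost without 1 to 3 other libraries (adjusted p over these losses 0.0548 to 0.124), Hnrnpc also with upper-quartile scaling (0.0537).

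Hnrnpf, Hnrnpul2 and Hnrnpm did not overlap between groups and did not pass (-0.20 ± 0.06, -0.19 ± 0.06 and -0.17 ± 0.06, adjusted p = 0.0545, 0.0575 and 0.11). With the GC and length offset these 3 passed, lower, as did Hnrnph1 (adjusted p = 0.017 to 0.0413). Hnrnpk, a poly(C)-binding protein, has the highest level per length of all 41 genes, at 154 RPKM, with 141 to 158 over the libraries. That rank is uncertain, since 50.5% of its transcript matched 3 other annotated genes, as is the second place of Srsf5, with 51.7% matching Gm12966. It was at 424, 401 and 428 CPM in WT and 394, 399 and 400 in cKO, so the groups were just apart, and the difference did not pass (-0.07 ± 0.07, 95% confidence interval -0.22 to 0.08, adjusted p = 0.523). Next in level among the hnRNPs are Hnrnpa2b1, which binds and sorts RNA, and Hnrnph1, a G-tract binder, at 97.9 and 97.8 RPKM, and these do not differ beyond their spread (SD 3.68 and 2.16). Hnrnpr had the smallest difference of the family (-0.02 ± 0.06, adjusted p = 0.886). Hnrnpa1 was listed at only 4.05 RPKM and Hnrnph3 at 3.69. Since 58.5% of the Hnrnpa1 transcript matched 12 other annotated genes, its level is uncertain, as is that of Hnrnpf, where 74.4% matched 10 genes. The 2 genes listed under older names, Hnrpdl (0.17 ± 0.08, adjusted p = 0.19) and Hnrpll (0.01 ± 0.06, adjusted p = 0.956), did not pass either.

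In the U2 snRNP, 1 of 3 SF3a and 2 of 5 SF3b subunits fell (33.3% and 40%), and none rose. These shares of very few genes stand beside 12.4% of all tested genes and 17% of those with a mean CPM of at least 10. Sf3b4 (chromosome 3, 96172550 to 96177564), the subunit SAP49 that contacts RNA upstream of the branch site and whose human gene is mutated in a craniofacial and limb syndrome, was at 40.8, 43.9 and 42.6 CPM in WT and 31.8, 36.6 and 30.4 in cKO. The groups did not overlap, and the fall of 0.37 ± 0.08 on the log2 scale (adjusted p = 0.0129) was about the same size as that of Srsf7. Of its transcript 66.6% matched the annotated gene Gm7935, and the call was lost without cKO 8 (adjusted p = 0.0603). Sf3b3 (chromosome 8, 110810492 to 110846803), a large scaffold subunit, was at 159, 154 and 154 against 131, 140 and 137 (-0.20 ± 0.06, adjusted p = 0.0481), near the threshold. Sf3a2 (chromosome 10, 80798735 to 80804922), the middle subunit of SF3a, was at 30.6, 34.4 and 37 against 28.2, 28.8 and 25.8 (-0.30 ± 0.08, adjusted p = 0.0315). Of its transcript 19.4% matched the annotated gene Plekhj1. The call of Sf3b3 ended on leaving out any library except cKO 37 (adjusted p = 0.0632 to 0.177), with upper-quartile scaling (0.0741) and with limma voom (0.0501). That of Sf3a2 ended on leaving out any library except WT 14 or cKO 10 (0.0709 to 0.13) and under the offset (0.103).

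Sf3b1, the scaffold around the branch site adenosine and the most abundant SF3 subunit per length (39.3 RPKM), was at 310, 307 and 324 CPM in WT and 336, 340 and 342 in cKO. The cKO libraries were all above the WT ones, by 0.11 ± 0.06 (adjusted p = 0.257), which did not pass and was -0.0025 under the offset for GC content and length. Sf3b2 did not differ beyond its error (-0.03 ± 0.06, 95% confidence interval -0.15 to 0.10, adjusted p = 0.793). Values for Sf3a1, Sf3a3 and Sf3b5 were -0.20 ± 0.08, -0.07 ± 0.06 and -0.17 ± 0.07 (adjusted p = 0.109, 0.521 and 0.121). Under the offset Sf3a1 and Sf3b5 passed, lower (adjusted p = 0.0442 and 0.0329). Without the offset, subunits of the same complex thus had values of either sign, with Sf3b4 at the lower end and Sf3b1 at the upper.

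**Figure D3:**
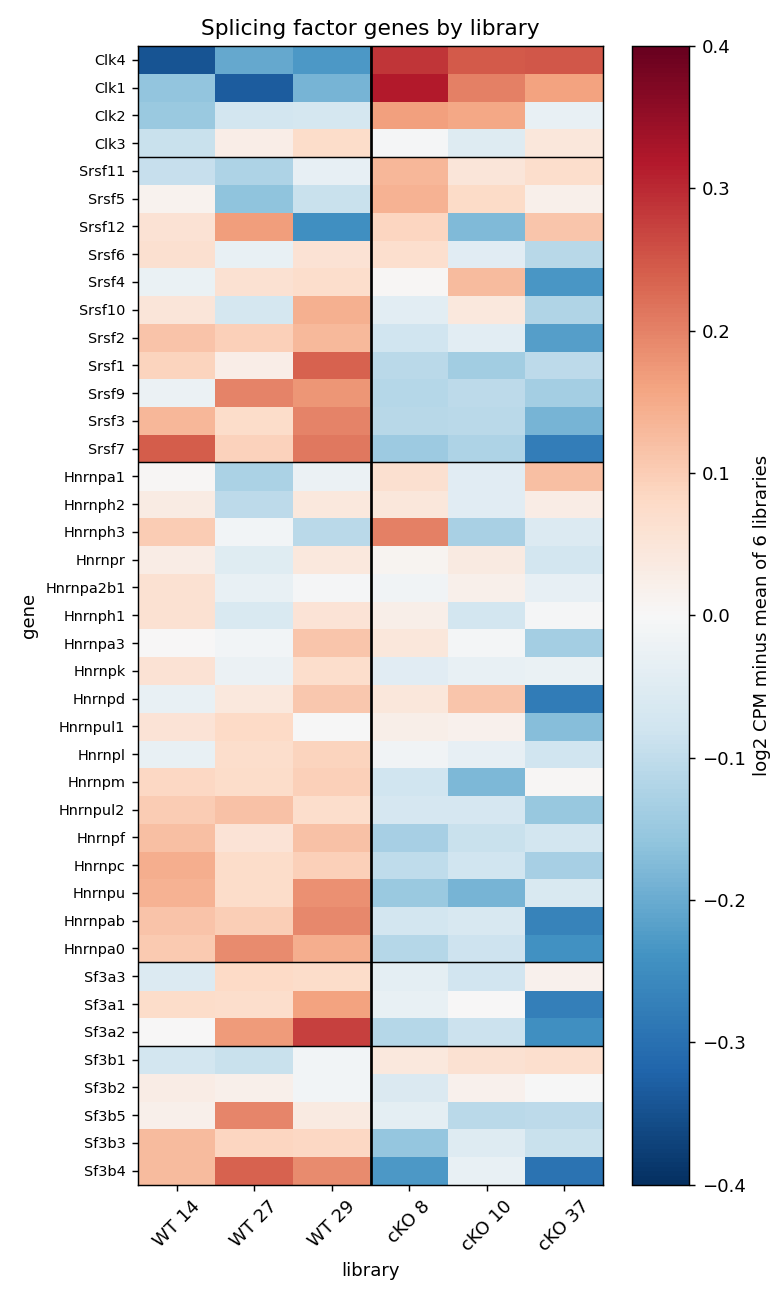
Log2 CPM of each of the 41 genes (rows, by family) in each library (columns) minus the mean of the 6 libraries, from blue (lower) to red (higher). Clk1 and Clk4 are red in the 3 cKO columns, and cKO 37 holds the lowest value of 20 of the 41 genes.

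Libraries were not alike within groups. cKO 37 held the lowest value of 20 of the 41 members and WT 29 the highest of 14. In Hnrnpd, an AU-rich element binding protein, cKO 37 was at 94.5 CPM and the other 5 libraries at 112 to 124, and in Srsf4 it was at 49.5 against 57.1 to 63.4. Without cKO 37, 11 members were lower and 3 higher, and 9 of the 12 fallen genes were still among the lower ones. cKO 37 also had the lowest summed level of the 7 cartilage markers (792 CPM, beside 2233 to 8305 in WT and at most 6468 in cKO), whose part in the member values was not tested.

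Other genes of the pathway were taken from lists of its parts, whose counts stand beside the 12.4% of all tested genes that passed. These lists too were chosen with earlier results of these data known. Of 26 SR-related and Tra2 proteins, 5 rose and 2 fell (26.9%). Tra2a and Tra2b, SR-like proteins that activate exons rich in GAA, had log2 fold changes of -0.38 ± 0.07 and -0.29 ± 0.06 (adjusted p = 0.0101 for both), lower like the 5 SR proteins, and Srek1, an SR-related protein, rose by 0.34 ± 0.07 (adjusted p = 0.0137). The 5 that rose became 0 (without cKO 8) to 7 with 1 library left out. Their number was 1 under the offset for GC content and length and 7 with upper-quartile scaling. The 2 that fell became 1 without WT 29 (Tra2b, adjusted p = 0.0527). Of 10 other SR protein kinases and associated factors, 3 rose and none fell (30%): the anchor protein gene Akap17b (0.43 ± 0.11), the kinase Dyrk1b (0.27 ± 0.07) and the spliceosomal kinase Prpf4b (0.22 ± 0.06, adjusted p = 0.0275, 0.0354 and 0.0379). These 3 calls fell to 0 or 1 without any single library, and to 1 with the offset. Srpk1, the main cytoplasmic SR protein kinase, was at -0.02 ± 0.06 (adjusted p = 0.874).

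Among 21 hnRNP-like proteins under other names, 2 rose and 6 fell (38.1%). Pcbp1, a poly(C)-binding protein also called hnRNP E1, fell by 0.46 ± 0.06 (adjusted p = 0.00164), from 165, 168 and 174 CPM in WT to 121, 123 and 126 in cKO, and Pcbp4 by 0.31 ± 0.06 (adjusted p = 0.00884). Cirbp, the cold-inducible RNA-binding protein, rose from 61.9, 65.2 and 61.8 to 92, 90.9 and 79.3 CPM (0.47 ± 0.07, adjusted p = 0.0033), while Rbm3, its relative, did not pass (0.11 ± 0.06, adjusted p = 0.304). The 6 that fell became 2 without cKO 8, 3 without any single WT library and 3 with upper-quartile scaling. The 2 that rose became 1 to 4 with 1 library left out and 1 under the offset.

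In the lists of core parts, 1 of 22 tested U1, U2 and branch site factors rose and 4 fell (22.7%). Rbm5, a regulator of 3′ splice site use, rose by 0.50 ± 0.06 (adjusted p = 0.00155), and the U1 subunit gene Snrpa and U2af2, which reads the polypyrimidine tract, fell by 0.31 ± 0.06 and 0.30 ± 0.06 (adjusted p = 0.00813 and 0.0104). Of 37 tri-snRNP, Prp19 and later factors, 4 rose and 1 fell, with Prpf39 at 0.44 ± 0.07, the cyclophilin Cwc27 at 0.46 ± 0.07 and Prpf18 at 0.23 ± 0.06 (adjusted p = 0.00448, 0.00491 and 0.0371). The call of Prpf18 ended on leaving out any of the 6 libraries (adjusted p = 0.0537 to 0.139) and under the offset (0.143), while those of Prpf39 and Cwc27 held in each of these fits. The list of tri-snRNP, Prp19 and later factors had 13.5% of its genes past the threshold, beside 12.4% of all tested genes. Of 14 tested Sm and LSm genes, 2 fell, Lsm3 by 0.41 ± 0.09 and Lsm4 by 0.24 ± 0.06 (adjusted p = 0.0173 and 0.0302), or 14.3% of that list. Without 1 library the 4 lower U1 and U2 factors became as few as 1 (without cKO 8), and 6 under the offset. The 4 higher genes of the tri-snRNP, Prp19 and later list became 2 to 3 without 1 library and 5 with upper-quartile scaling. The 2 Sm and LSm genes became 0 (without WT 27 or cKO 8).

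None of 13 tested exon junction and nonsense-mediated decay genes passed in the edgeR fit with TMM scaling and the low-count filter (3 at an unadjusted p under 0.05). With edgeR, 1 was higher under upper-quartile scaling, with halved counts and with a mean CPM of at least 1 as the filter, and 1 was lower without a filter. With DESeq2 1 was higher and 1 lower, and with limma voom none passed. Of 25 tissue splicing regulators 1 rose, Celf3 (0.57 ± 0.15, adjusted p = 0.0352), and leaving out any library except cKO 10 ended its call. The medians of the 8 lists lay between -0.07 and 0.09.

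**Figure D4:**
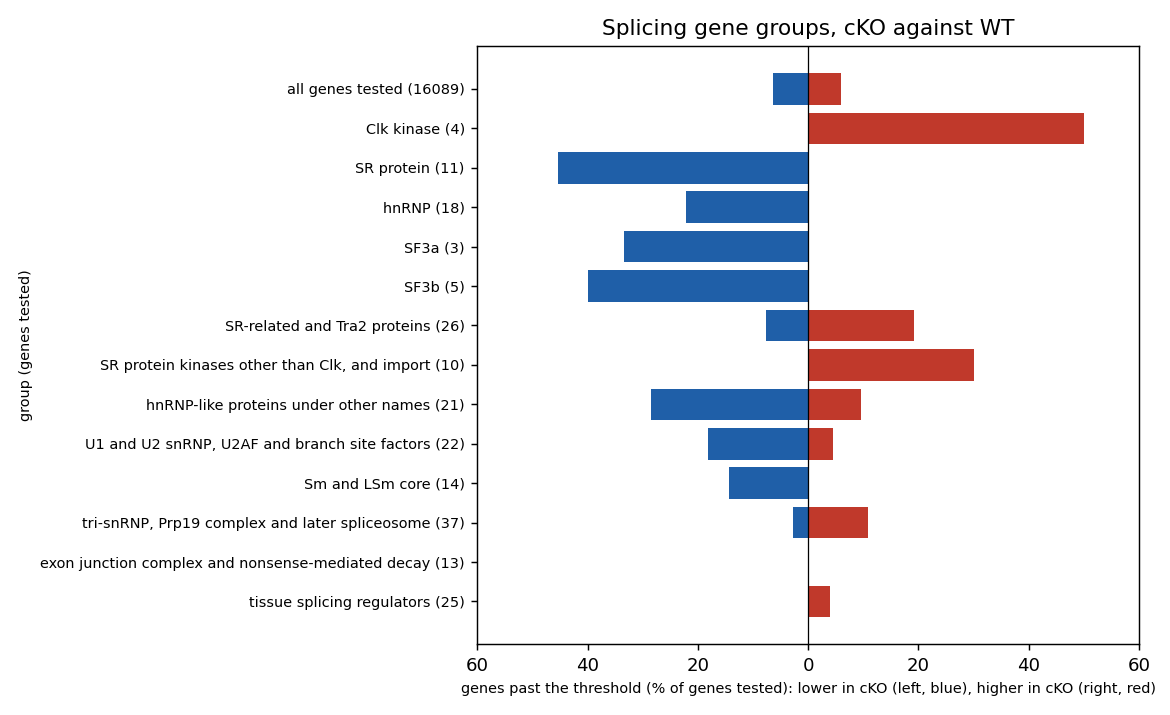
Percent of tested genes in each splicing gene group that passed the threshold (x axis), lower in cKO to the left in blue and higher to the right in red, with the number tested in brackets (y axis). SR proteins, hnRNPs and SF3 subunits extend only to the left and the Clk kinases only to the right, beside 6.45% lower and 5.96% higher for all genes.

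Annotated transcripts and base composition are features that the rule did not use. In GENCODE M21, 22 of the 41 members (53.7%) have a transcript annotated as a target of nonsense-mediated decay, beside 25.1% of tested genes, and 30 (73.2%) have a retained-intron transcript, beside 52.6%. Clk1 and Clk4 each have 7 retained-intron transcripts, where the member median is 2, as many as Hnrnpl (7) and fewer than Hnrnpk (13) and Srsf11 (11), none of which passed. Members also have more annotated transcripts of any kind, with a median of 8 beside 5 for tested genes, and the shares above were not adjusted for that number. A decay transcript is annotated for 9 of 11 SR proteins. The gene counts sum over all isoforms, so none of the values above tells a productive transcript from these.

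GC content of the longest transcript was 39.2% in Clk1 and 38.8% in Clk4, near the lower end of the members (37.1% to 62.2%), and 62.2% in Sf3a2 and 56.2% in Sf3b4. Across the 41 genes the correlation between GC content and log2 fold change was -0.36 (Pearson) and -0.31 (Spearman), and across 15851 tested genes -0.21 and -0.26. Within families it was -0.02 and 0.09 over the 11 SR proteins and -0.45 and -0.44 over the 18 hnRNPs. These are descriptions across genes of the same 6 libraries, which are not independent replicates. Srsf7 (41.6%), Srsf3 (40.9%) and Hnrnpu (40.9%) were among the GC-poor members and fell. With the offset for GC content and length, 17 members were lower and 3 higher, and 11 of the 12 fallen genes were still among the lower ones. Clk1 and Clk4 were then at 0.31 and 0.37 (adjusted p = 0.0111 and 0.0054), and the member median at -0.19 beside -0.03 for all tested genes.

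**Figure D5:**
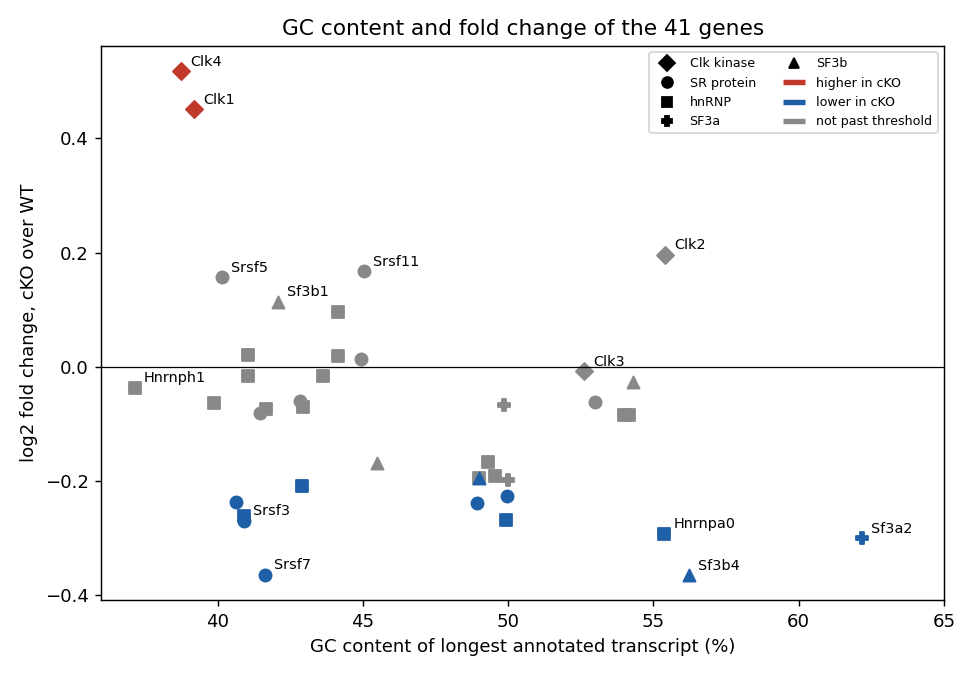
Log2 fold change, cKO over WT (y axis), against the GC content of the longest annotated transcript in percent (x axis) for the 41 genes, with a marker for each family and colour for the call. Clk1 and Clk4 stand at the upper left at 38.8% to 39.2% GC, and genes that fell range from 40.6% to 62.2%.

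Genes of the early response and of heat shock moved with the groups as well. Of the 21 listed, 18 fell and none rose (85.7%, beside 12.4% of all tested genes). This list too was chosen with earlier results of these data known. Its summed level was 6126 to 6890 CPM in WT and 3881 to 4351 in cKO. The heat shock protein gene Hsph1 was at 37, 26.4 and 33.4 CPM in WT and 15.8, 15.7 and 19.2 in cKO (-0.93 ± 0.13, adjusted p = 0.00593). Of the 8 osteoclast and macrophage markers, 2 fell (Csf1r and Acp5) and none rose (25%). That list summed to 2169 to 2850 CPM in WT and 1791 to 2014 in cKO. Of the 10 osteoblast markers 1 fell and none rose (10%). Their sums overlapped, at 128383 to 175887 CPM in WT and 93359 to 130389 in cKO. Of 5 tested neural markers 1 fell and none rose (20%). Their sums did not overlap, at 19.2 to 26.2 CPM in WT and 13.9 to 18.6 in cKO. In the other cell type lists no gene passed. Neat1, a nuclear noncoding RNA, rose by 0.35 ± 0.09 (adjusted p = 0.0337), while Malat1 and the ribosomal precursor Rn45s overlapped between groups. The part of each in the member values was not tested.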

How the data were processed

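RNA of 6 calvaria samples was sequenced. The authors deposited gene read counts and RPKM values for all libraries in a single table, with a coding length per gene that gives the length scale of the RPKM. Per the submitters' processing notes, bcl2fastq, TopHat2 2.0.6, HTSeq and the mm10 build were used; any annotation, strand setting or filter was not given in the sources used here. Every deposited count is even, so halved counts were tried as an alternative. The RPKM values imply library totals of 80605859 to 126338446, above the gene totals, and were used only for levels between genes.

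Counts were scaled by TMM (factors 0.9519 to 1.072) and tested in R 4.3.3 with edgeR 4.0.16 (robust quasi-likelihood F test) over 16089 genes, after filterByExpr (minimum count 10). Adjusted p-values are Benjamini-Hochberg over those genes, with a threshold of 0.05. CPM values are TMM-scaled and errors of fold changes are standard errors. The alternatives used other scalings and filters, DESeq2 1.42.0, limma 3.58.1 (voom), a threshold of 0.1, a test against a fold change of 1.2, GC content and length as an offset, and each library left out. The procedure was tested on simulated data with scatter independent between libraries, which says nothing of library effects in these data.

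GC content, transcript classes and shared sequence came from GENCODE M21 transcripts (GC content for 98.53% of tested genes), and shared sequence was counted at 95% identity or more over at least 100 bases. Named genes are all members past the threshold, all Clk and SF3 genes, in the SR and hnRNP families the gene with the highest RPKM and that with the smallest fold change, up to 3 genes of smallest p from each pathway list, and Ezh2. Srsf11, Srsf4, Srsf6, Srsf10, the other hnRNPs named, Srpk1, Rbm3, Hsph1, Csf1r, Acp5 and the nuclear RNAs were added after their values were seen. The members and lists were chosen with earlier results of these data known.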

Additional observations from a re-analysis of the deposited data

How the results depend on the processing

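The 2 higher members became 4 at an adjusted p threshold of 0.1 and 1 when tested against a 1.2-fold change, and were 2 to 3 with 1 library left out. The 12 lower members became 7 with upper-quartile scaling, 0 when tested against a 1.2-fold change and 1 to 11 with 1 library left out. No paired analysis was possible because the groups share no replicate number. No called member changed sign, but their groups did not overlap, so leaving out a library could hardly have reversed one. Single members that did not pass and changed sign had these log2 fold changes. With upper-quartile scaling, Clk3 was at 0.0187, Hnrnpa2b1 was at 0.0102, Hnrnpr was at 0.0115 and Sf3b2 was at 0.000168. Under the GC and length offset, Hnrnpa1 was at -0.00311, Hnrnph2 was at -0.105, Hnrnph3 was at -0.0803, Sf3b1 was at -0.00246 and Srsf12 was at -0.0754. With 1 library left out, Clk3 ran from -0.0539 to 0.0267, Hnrnpa2b1 ran from -0.0411 to 0.0088, Hnrnpd ran from -0.158 to 0.0331, Hnrnph2 ran from -0.0296 to 0.0468, Hnrnph3 ran from -0.0858 to 0.0758, Hnrnpr ran from -0.0486 to 0.012, Srsf12 ran from -0.0994 to 0.0975 and Srsf4 ran from -0.152 to 0.0273. The cause of these changes was not tested. Over all genes, 959 were higher and 1038 lower, against 1191 and 764 with upper-quartile scaling and 729 and 1442 with the offset. The total of 1997 became 586 to 1985 with 1 library left out, 3277 at a threshold of 0.1 and 112 when tested against a 1.2-fold change.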
